A study of Mus musculus with 2 samples.

Results

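The cells described here are tumor myeloid cells with mRNA of both Ccr7 and Ccl22, taken from single-cell RNA sequencing (scRNA-Seq) of murine colitis-associated colon cancers (CACs). In the deposited annotation they carry the label MAC (macrophage) or DC (dendritic cell), and a cell was chosen when at least 1 unique molecular identifier (UMI, a tag that counts captured mRNA molecules) was found for each of both mRNAs. This gave 279 cells, 0.718% of 38883 cells and 4.99% of the 5587 cells labelled MAC or DC. Of these 279, 200 were labelled DC and 79 MAC. They are called Ccr7+ Ccl22+ cells below, and cells of the same label without a UMI of either mRNA are called double-negative. The UMIs of Ccr7 and Ccl22 chose the cells, so the cells were selected on these measured values and the levels of both are descriptions.

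The study compared CACs of mice in which Mir34a was deleted in myeloid cells by LysM-Cre (Mir34a ΔMye, labelled Mir34a_Mye_KO) with CACs of floxed littermates without this deletion (Mir34a F/F). All mice were female, on a C57Bl/6 background, and 6 to 10 weeks old at the first injection of azoxymethane (AOM, 10 mg/kg), which was followed by 3 cycles of dextran sodium sulfate (DSS, 2.5% in the first cycles and 2% in the third), with sacrifice on day 110. A library pooled 6 to 8 tumors of 3 mice with 1 genotype, and 30000 cells were loaded for it. The annotation names no mouse, so mice of a pool were not told apart and genotypes were not tested against each other. Both libraries carried the tumor treatment and floxed Mir34a alleles, and LysM-Cre acts in macrophages and neutrophils and only in some dendritic cells.

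CCR7 is the chemokine receptor by which dendritic cells follow CCL19 and CCL21 from tissue into lymphatic vessels and lymph nodes. CCL22 and CCL17 are ligands of CCR4, a receptor of regulatory and other T cells, and fascin, the product of Fscn1, bundles actin in the long protrusions of mature dendritic cells. In tumors, dendritic cells with these mRNAs also carry T cell costimulators and checkpoint ligands side by side, and lose much of the antigen-uptake programme of immature cells. Monocyte-derived cells can also transcribe Ccr7 and Ccl22 when activated.

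The F/F-labelled library held 20312 cells with a median of 4787 UMIs, and the ΔMye-labelled library 18571 cells with a median of 7716 UMIs. In both, some cells (2470 and 4130) lay at or above the stated limit of 25% mitochondrial RNA, among them 7 Ccr7+ Ccl22+ cells. The libraries shared 96 cell barcodes, of which 26 belonged to cells labelled MAC or DC and 1 to a Ccr7+ Ccl22+ cell. A feature listed as mir34apri, which by its name stands for the primary transcript of the targeted gene, had 3 UMIs in the 121 Ccr7+ Ccl22+ cells labelled Mir34a F/F and 24 UMIs in the 158 cells labelled Mir34a ΔMye, 0.0175 and 0.0807 UMIs per 10000. A lower level under the label Mir34a ΔMye was thus not seen in this feature. The sources used here do not say which sequence it covers. Lyz2, into which LysM-Cre is inserted, was lower under the label Mir34a ΔMye, at 0.395 and 0.0761 in Ccr7+ Ccl22+ cells and at 1.35 and 0.353 in double-negative cells. Of the features named for Cre, crenls had no UMI in either library, and crenlslyz2, which by its name joins Cre to Lyz2, was found in both, at 0.0492 and 0.0269 in Ccr7+ Ccl22+ cells and at 0.155 and 0.0474 in double-negative cells, and was thus not higher under the label Mir34a ΔMye. Each group is named below by its label. Mature miR-34a, its hairpin and the stem-loop had no UMI in either library (a count of 0 allows up to 3 UMIs), and libraries primed on poly(A) are not made for such short RNAs.

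Among cells labelled DC, Ccr7+ Ccl22+ cells made up 95 of 347 cells (27.4%, 22.8 to 32.4 as the exact 95% binomial interval) in the F/F-labelled library and 105 of 431 cells (24.4%, 20.4 to 28.7) in the ΔMye-labelled library. Among cells labelled MAC they made up 26 of 2208 cells (1.18%, 0.771 to 1.72) and 53 of 2601 cells (2.04%, 1.53 to 2.66). The intervals overlapped in both labels, and they cover counting error only. A cell needs enough UMIs to show both mRNAs. The Ccr7+ Ccl22+ DCs had medians of 8409 and 16287 UMIs against 6069 and 12875.5 in double-negative DCs, and the Ccr7+ Ccl22+ cells labelled MAC 10857 and 19160 against 6953.5 and 9833.5. After every cell was thinned to 2000 UMIs, with 17 and 9 shallower DCs and 220 and 249 shallower cells labelled MAC left out, the shares were 18.5% and 13.5% of DCs and 0.252% and 0.553% of cells labelled MAC. As a measure of free RNA, cells labelled as epithelial, which should lack both mRNAs, had both in 0.164% and 0.152% of cells at medians of 5315 and 6623 UMIs, and in 0.0307% and 0% after thinning (3 of 9782 and 0 of 8266 cells, where the latter allows up to 0.0446% by the exact 95% interval). The share among cells labelled MAC was above that of epithelial cells in both libraries, before and after thinning to equal depth. After thinning, its intervals were 0.0817 to 0.586 and 0.295 to 0.943, and the first overlapped that of epithelial cells (0.00633 to 0.0896). Before thinning, both mRNAs were found in 0.259% and 0.793% of T cells and 0.636% and 0.756% of B cells. The product of the shares with each mRNA gives 8.22 and 17.6 cells labelled MAC, against 26 and 53 found. The part of free RNA was not tested.

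**Figure D1:**
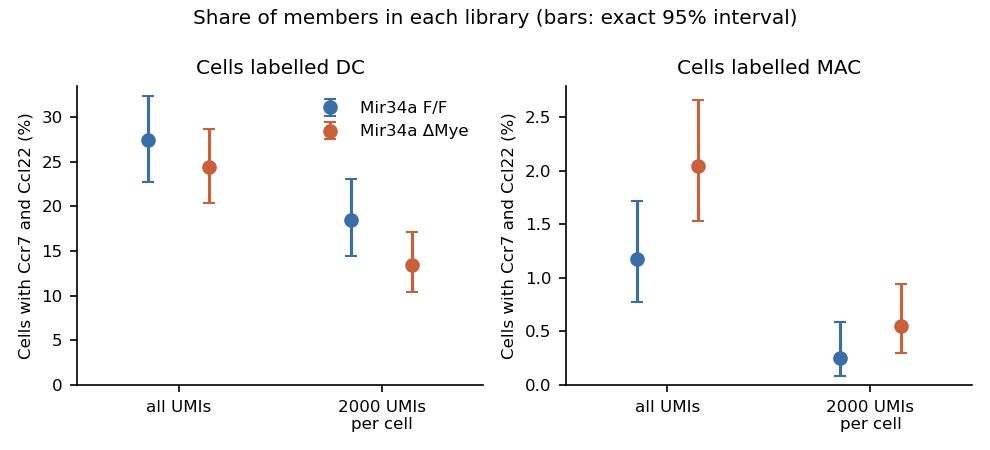
Share of cells with both Ccr7 and Ccl22 (%, y axis) among cells labelled DC (left) and MAC (right) in each library, with all UMIs and after thinning to 2000 UMIs per cell. Bars are exact 95% binomial intervals. DCs lie at 27.4% and 24.4% and cells labelled MAC at 1.18% and 2.04% before thinning, and all 4 shares are lower after it.

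Levels are given as the mean over cells of UMIs per 10000 UMIs of a cell, always for the F/F-labelled library and then for the ΔMye-labelled library. Ccr7 was at 21.1 and 20.8 in Ccr7+ Ccl22+ DCs and at 7.68 and 7.22 in Ccr7+ Ccl22+ cells labelled MAC. Ccl22 was at 13.7 and 14.2 in the DCs and at 7.44 and 5.94 in the cells labelled MAC. Both libraries thus held more of each mRNA in the DCs. In the cells labelled MAC, Ccl22 was uneven, and a single cell held 33.8% and 37.4% of its UMIs, against 12.2% and 11.6% in DCs. Of the 279 cells, 183 had at least 2 UMIs of each mRNA and 18 had 1 UMI of each.

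Ccl17 and Fscn1, the other markers of mature dendritic cells, were not used to choose cells. In Ccr7+ Ccl22+ DCs, Ccl17 was found in 66.3% and 76.2% of cells and Fscn1 in 53.7% and 49.5%. Both were found in 34 cells (35.8%) and 41 cells (39%), and neither in 15 (15.8%) and 14 (13.3%). The cells labelled MAC went against the name of mature cells in 1 of these markers. Ccl17 was found in 34.6% and 32.1% of them, but Fscn1 in 1 of 26 cells and 2 of 53 cells, with 7 and 15 UMIs in all, and neither marker was found in 17 (65.4%) and 36 (67.9%). These cells are therefore called by the rule that chose them and by their label, and not mature macrophages.

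Among DCs, cells just outside the rule held these markers in a lower share of cells. DCs with Ccl22 but no UMI of Ccr7 (17 and 47 cells, with medians of 7079 and 6243 UMIs) held Ccl17 in 58.8% and 57.4% and Fscn1 in 17.6% and 19.1%. Their mean Ccl17 level was not lower, at 6.83 and 9.36 UMIs per 10000 against 4.49 and 9.31 in Ccr7+ Ccl22+ DCs. DCs with Ccr7 but no UMI of Ccl22 (57 and 87 cells) held Ccl17 in 22.8% and 23% and Fscn1 in 5.26% and 9.2%. Cells labelled MAC with Ccl22 but no UMI of Ccr7 (76 and 116 cells) held Ccl17 in 17.1% and 7.76% and Fscn1 in 5.26% and 2.59%, and those with Ccr7 but no UMI of Ccl22 (152 and 218 cells) held Ccl17 in 7.89% and 7.8% and Fscn1 in 2.63% and 2.29%. The share with Fscn1 was thus low on both sides of the rule under this label. Just inside the rule, cells labelled MAC with 1 UMI of each mRNA (6 and 9 cells) held Ccl17 in none and in 33.3% and no UMI of Fscn1.

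Next, Ccr7+ Ccl22+ cells were compared with double-negative cells of the same label and library. A level for each library and state (8 levels) entered a limma fit on log2(level + 0.5) with the library as a block, and differences are on this scale, which understates changes of low mRNAs. A gene was called higher or lower at a Benjamini-Hochberg adjusted p below 0.05 and a difference of at least 1. With this block, the p-values measure how far differences between states varied between 2 pooled libraries of different genotype labels. This spread was taken over the states of both labels and moderated by that of other genes. It is not the spread between mice. Of 8371 genes tested, 138 (1.65%) were higher and 92 (1.1%) lower in Ccr7+ Ccl22+ DCs than in double-negative DCs.

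Fscn1, which encodes the actin bundler fascin, and the chemokine genes Ccl5 and Ccl17 were among the 10 genes with the largest difference in Ccr7+ Ccl22+ DCs. Fscn1 was at 4.38 and 5.19 UMIs per 10000 against 0.0684 and 0.118 in double-negative DCs, a difference of 3.15 ± 0.11 (SE, limma adjusted p = 2e-06). Ccl17 was at 4.49 and 9.31 against 0.592 and 0.658, a difference of 2.64 ± 0.50 (limma adjusted p = 0.0078). Ccl5, a chemokine that attracts T cells, was at 9.13 and 5.55 against 0.145 and 0.93, a difference of 2.99 ± 0.33 (limma adjusted p = 0.00058). For each of these mRNAs, both values of Ccr7+ Ccl22+ DCs lay above both values of double-negative DCs, which is likely for called genes and adds no support. The Ccl17 call rested on the choice of comparison cells, since against all other DCs, many of which hold Ccr7 or Ccl22, its difference was 1.63 with a limma adjusted p of 0.1. Ccl5 was found in only 40% and 41% of the cells, with none in the median cell. Of 21 tested chemokines and chemoattractant receptors, 2 were higher (Ccl5 and Cxcl16) and 3 lower (Ccl4, Ccr2 and Ccr9), with a median difference of -0.01 against -0.07 over all genes tested. The call of Ccl4 (-2.23) was lost in cells without T or B cell UMIs (limma adjusted p = 0.084), against all other DCs (0.079), without double-negative cells with Siglech (0.12) and without the library block (0.051).

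Most listed genes of the wider programme of mature dendritic cells were higher as well. Of 26 tested genes of this list besides the marker genes, 21 were higher and none lower, with a median difference of 1.49. Over all tested genes, 1.65% were higher and the median difference was -0.07. This list, like the others, was chosen with earlier results of these data known, so the count is a description. Fabp5, a carrier of fatty acids, was at 22.4 and 17.3 UMIs per 10000 against 1.74 and 1.11 (difference 3.41 ± 0.18, limma adjusted p = 2e-05). Serpinb6b was at 7.15 and 6.54 against 0.693 and 0.734 (2.60 ± 0.11, limma adjusted p = 6.2e-06), and Serpinb9, an inhibitor of granzyme B, at 5.68 and 5.44 against 0.595 and 0.715 (2.39 ± 0.18, limma adjusted p = 0.00011). Mreg, a gene of organelle transport, was at 1.49 and 1.5 against 0.0524 and 0.051 (1.86 ± 0.10, limma adjusted p = 2.2e-05). Groups did not overlap for any of these mRNAs, which is likely for called genes and adds no support. The list also held the nuclear receptor Nr4a3 (difference 1.79), the calcium channel subunit Cacnb3 (1.71) and the adaptor Samsn1 (2.10). Cst3, a protease inhibitor that DCs hold in large amounts, differed by 0.20 and was not called. The adhesion receptor Adgrg6 (2.50) and the survival gene Bcl2a1b (2.44), which has near-identical copies that may share reads, were higher outside this list.

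Genes of cell shape and migration followed, with 10 of 20 tested genes higher, none lower and a median difference of 1.01. Marcks, a membrane protein that binds actin, was at 8.50 and 8.12 UMIs per 10000 against 2.47 and 2.27, and Basp1, a related membrane protein, at 13.8 and 15.9 against 3.32 and 3.75. Tbc1d4, a regulator of vesicle transport, was at 13 and 8.79 against 1.71 and 1.80. The differences were 1.62 ± 0.13, 1.92 ± 0.14 and 2.31 ± 0.16 (limma adjusted p = 0.00016, 8.8e-05 and 6.7e-05). Both libraries lay apart from the double-negative cells in each, which is likely for called genes.

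Genes of T cell costimulation and of T cell inhibition were both among those called. Of 16 tested costimulation and adhesion genes, 4 were higher and none lower. They were Cd40 (1.51 and 1.55 UMIs per 10000 against 0.172 and 0.282), Cd80 (4.02 and 5.28 against 1.13 and 1.28), the costimulatory receptor Tnfrsf9 and the uptake receptor Ly75. Cd86 and Cd83 differed by 0.76 and 0.67 and did not reach the required difference of 1. Among 18 tested regulatory molecules, 5 were higher and 1 (Lgals1) was lower. Il4i1, an enzyme that degrades aromatic amino acids, was at 3.63 and 3.58 against 0.16 and 0.0378, a difference of 2.79 ± 0.12 (limma adjusted p = 6.2e-06), and was found in 69.5% and 64.8% of the cells. Cd274, which encodes PD-L1, was at 4.48 and 6.76 against 1.16 and 1.29 (1.80 ± 0.20, limma adjusted p = 0.00059). Pdcd1lg2, which encodes PD-L2, differed by 1.28 ± 0.24 (limma adjusted p = 0.0074) and Cd200, a ligand of an inhibitory receptor, by 1.84 ± 0.20 (limma adjusted p = 0.00059).

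In the NF-κB pathway, 6 of 20 tested genes were higher and none lower (median difference 0.79). The subunit gene Rel was at 14.2 and 15.9 UMIs per 10000 against 5.70 and 5.49, a difference of 1.35 ± 0.12 (limma adjusted p = 0.00025), which was 0.96 against all other DCs. Relb differed by 1.49 ± 0.25 (limma adjusted p = 0.0049), while Nfkb1 and Nfkb2 differed by 0.81 and 0.86. Of 22 tested cytokine and cytokine receptor genes, 4 were higher and none lower. Il12b, which encodes the subunit shared by IL-12 and IL-23, was at 2.38 and 2.67 against 0.0624 and 0.191 (2.28 ± 0.26, limma adjusted p = 0.00063). It was found in 23.2% and 24.8% of the cells, and a single cell held 51.2% and 38.3% of its UMIs. Il1rn and Il7r differed by 1.15 and 1.29. Il1b was at 25.6 and 30.7 against 14.6 and 11.5 and differed by 1.08, which fell below 1 under several other settings (0.71 to 0.90).

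Few antigen presentation genes were called. Of 14 tested MHC class II genes 1 was lower, March1, which encodes a ligase that removes MHC class II from the surface (0.0189 and 0.145 UMIs per 10000 against 0.657 and 0.903, difference -1.14 ± 0.11, limma adjusted p = 0.00029), while 2 were higher and 4 lower at an unadjusted limma p below 0.05. March1 differed by -0.91 against all other DCs and by -0.72 with a pseudocount of 1, and was then not called. Of 18 MHC class I genes 1 was higher, the proteasome activator Psme2 (difference 1.22), while 11 were higher and 2 lower at an unadjusted limma p below 0.05 whatever the size of the difference. Among the interferon-stimulated genes, Bst2 was lower (-1.82), but not called without double-negative cells with Siglech (-0.48). None of 19 genes of endocytosis and pattern recognition was called, and 1 was higher and 3 lower at an unadjusted limma p below 0.05. None of 12 cell cycle genes was called, with 2 lower at that unadjusted p, and of 18 immediate-early and heat shock genes Hsph1 was called lower. Of these 18, 13 were lower and 1 higher at the unadjusted p, with a median difference of -0.44 against -0.07 over all genes tested. Their part in the other differences was not tested.

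Genes of plasmacytoid dendritic cells and of type 1 conventional dendritic cells were among the 92 that were lower in Ccr7+ Ccl22+ DCs. Siglech, a surface receptor of plasmacytoid dendritic cells, was at 0.0102 and 0.0202 UMIs per 10000 against 3.54 and 3.95 in double-negative DCs, a difference of -3.04 ± 0.10 (limma adjusted p = 2e-06). It was found in 1.05% and 1.9% of Ccr7+ Ccl22+ DCs and in 16.9% and 25% of double-negative DCs. Of 8 tested genes of plasmacytoid dendritic cells, 6 were lower and none higher (median -1.79), among them Ccr9 (-2.29) and Ly6d (-2.07). Cox6a2 had no UMI in Ccr7+ Ccl22+ DCs, which allows up to 3.16% and 2.86% of cells with a UMI, against 11.2% and 17.7% of double-negative DCs. Of 10 tested genes of type 1 conventional dendritic cells (cDC1), 7 were lower and none higher (median -1.18). Clec9a, a receptor for dead cells, was at 0.282 and 0.23 against 1.27 and 1.37 (-1.27 ± 0.10, limma adjusted p = 0.00016), and Wdfy4, which is needed for cross-presentation, at 0.788 and 1.31 against 4.10 and 4.75 (-1.69 ± 0.14, limma adjusted p = 0.00017). Of 13 tested genes of type 2 conventional dendritic cells only Cd7 was lower, and of 10 general conventional dendritic cell genes Bcl11a and Ckb. Without the double-negative DCs that held Siglech, 42 genes were lower, against 92, and Ccr9 and Ly6d differed by -0.31 and -0.24 and were not called, while Clec9a and Wdfy4 were still called. The monocyte genes Ly6c2 and Ccr2 were lower by -2.25 and -1.05, and by -0.39 and -0.88 without these cells.

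**Figure D2:**
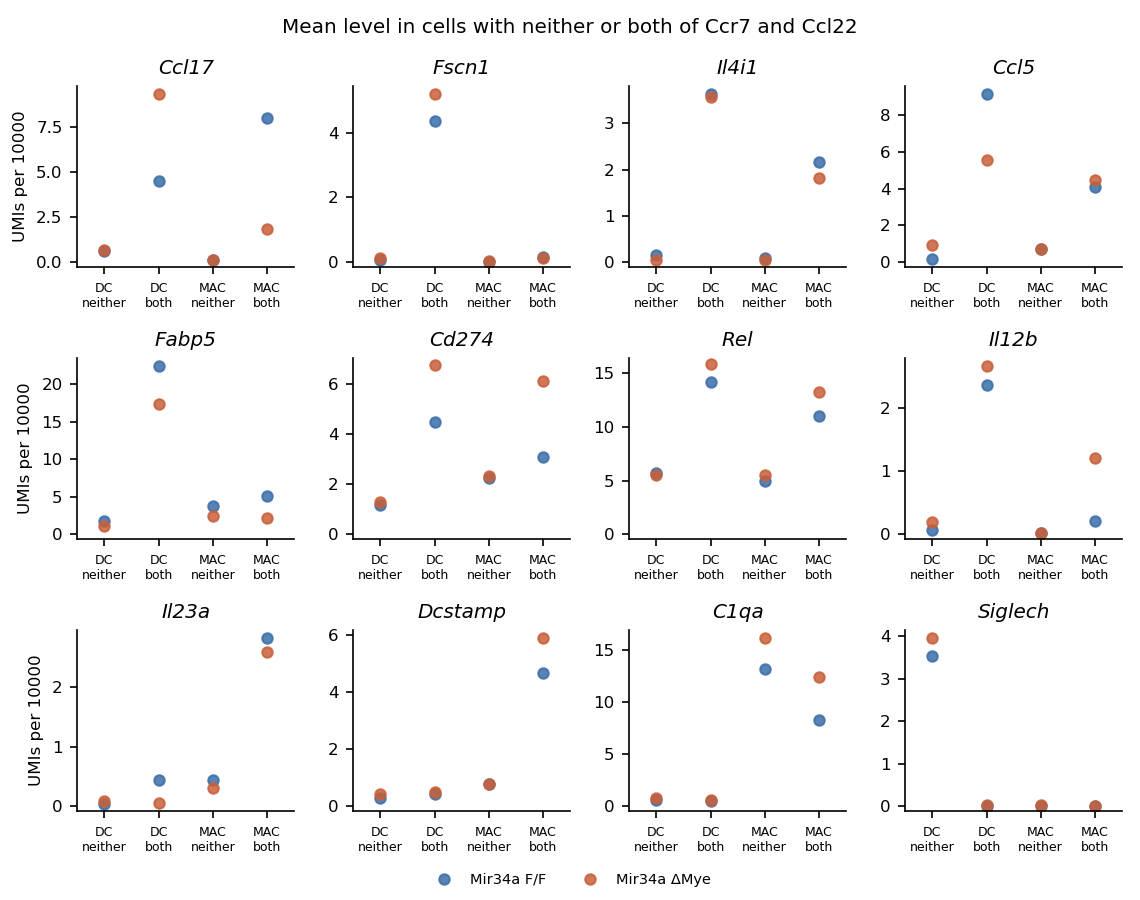
Mean level (UMIs per 10000, y axis) of selected mRNAs in double-negative (neither) and Ccr7+ Ccl22+ (both) cells labelled DC and MAC, with 1 point per library. Of the 12 mRNAs plotted, Fabp5 and Fscn1 had the largest fitted differences among DCs (3.41 and 3.15) and Ccl17 and Dcstamp among cells labelled MAC (2.89 and 2.16), and Siglech is high in double-negative DCs.

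Among cells labelled MAC, fewer genes differed. Of the 8371 genes, 55 (0.657%) were higher and 12 (0.143%) lower in Ccr7+ Ccl22+ cells than in double-negative cells. These counts depended on the settings. They were 37 and 6 without the library block, 125 and 88 with a pseudocount of 0.1, and 0 and 0 with no filter on low levels. With 26 and 53 cells, single cells weighed on these means. Ccl17 was at 7.97 and 1.85 UMIs per 10000 against 0.118 and 0.0886, a difference of 2.89 ± 0.50 (limma adjusted p = 0.018). Its level was 6.04 and 1.54 without the cell that held most of it. Ccl5 was at 4.07 and 4.44 against 0.722 and 0.70 (1.97 ± 0.33, limma adjusted p = 0.016), and was found in 34.6% and 37.7% of the cells. Fscn1 was at 0.152 and 0.135 against 0.0129 and 0.0286, a difference of 0.31 that was not called. With a pseudocount of 0.1 in place of 0.5 the difference of Fscn1 was 1.01 and was called (limma adjusted p = 0.031). The difference in cells labelled MAC minus that in DCs was -2.85 for Fscn1 and 0.25 for Ccl17, given as descriptions since the labels come from clustering of the same mRNAs.

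Several genes that were higher in these cells encode receptors, enzymes and secreted factors. Dcstamp, a membrane protein that osteoclasts and giant cells need for fusion, was at 4.67 and 5.88 UMIs per 10000 against 0.782 and 0.783 (difference 2.16 ± 0.12, limma adjusted p = 0.00013). It was found in 69.2% and 75.5% of the cells and thus in most of them. Il4i1 was at 2.16 and 1.81 against 0.0968 and 0.052 (2.11 ± 0.12, limma adjusted p = 0.00013) and was found in 42.3% and 45.3% of the cells. Il23a, which encodes the subunit that is particular to IL-23, was at 2.83 and 2.60 against 0.446 and 0.296 (1.89 ± 0.18, limma adjusted p = 0.0022), where a single cell held 51.5% and 35.2% of its UMIs. The activin subunit gene Inhba was at 10.9 and 12.0 against 4.33 and 2.50 (1.65 ± 0.26, limma adjusted p = 0.014). Groups did not overlap for any of these, which is likely for called genes and adds no support. In DCs, Dcstamp and Il23a differed by 0.14 and 0.37, which is 2.03 and 1.52 less than in cells labelled MAC.

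Of the lists, the mature dendritic cell programme had 7 of 26 genes higher and none lower (median 0.34 against -0.05 over all genes tested), among them Nr4a3 (1.80), Ramp3 (1.89), Samsn1 (1.44) and Cst3, which differed by 1.01 and was below 1 or not called under 8 alternatives (0.64 in cells without T or B cell UMIs, and a limma adjusted p of 0.089 without the library block). Of 20 genes of shape and migration, Tbc1d4 was higher (2.12). Of 16 costimulation and adhesion genes, Tnfrsf9 was higher (4.01 and 2.40 UMIs per 10000 against 0.575 and 0.406, difference 1.87 ± 0.17, limma adjusted p = 0.002), while Cd80 differed by 0.97. Of 18 regulatory molecules, Il4i1 and Pdcd1lg2 (1.13) were higher, and Cd274 differed by 0.80 (limma adjusted p = 0.057). The call of Pdcd1lg2 was lost under 5 alternatives. Among them were the fit without cells that held T or B cell UMIs (1.20, limma adjusted p = 0.076) and that without the library block (limma adjusted p = 0.079). Rel (1.13) and Tnfaip2 (1.29) were the NF-κB pathway genes called, of 20, and Il23a, Il6 (1.43) and Il7r (1.14) the cytokine genes called, of 22. Il7r differed by 0.82 with UMIs summed over cells and by 0.93 with a pseudocount of 1, and was then not called. Of 21 chemokines and receptors, Ccl5 was higher and Ccl8 and Cx3cr1 lower. No gene was called in the lists of MHC class I (18 genes), MHC class II (14), endocytosis and pattern recognition (19), cDC1 (10), cDC2 (13), general conventional dendritic cells (10), plasmacytoid dendritic cells (8) or the cell cycle (12). At an unadjusted limma p below 0.05, 3 MHC class I genes were higher and 1 lower, 6 MHC class II genes higher and 2 lower, and 3 endocytosis genes higher and 8 lower. By the same measure 1 cDC1 gene was higher and 2 lower, 2 cDC2 genes higher and 3 lower, 2 general dendritic cell genes higher and 1 lower, 1 plasmacytoid gene higher and 4 cell cycle genes lower. Rsad2, an antiviral gene, was called among 13 interferon-stimulated genes (1.24), but its call was lost under 7 alternatives (limma adjusted p of 0.051 to 0.25), among them summed UMIs, cells without T or B cell UMIs, all other cells as comparison and no library block, and a single cell held 69% and 38.3% of its UMIs.

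Genes of resident macrophages and of monocytes were among those lower in the Ccr7+ Ccl22+ cells labelled MAC. Of 20 tested macrophage genes, 3 were lower and none higher (median -0.54), and of 11 monocyte genes 4 were lower and none higher (median -0.56). At an unadjusted limma p below 0.05, 15 macrophage genes were lower and none higher, and 7 monocyte genes were lower and 1 higher. Apoe, which carries lipids, was at 50.8 and 48.5 UMIs per 10000 against 123 and 102 (difference -1.16 ± 0.13, limma adjusted p = 0.0033). Ms4a7 was at 1.40 and 1.36 against 3.86 and 4.29 (-1.28 ± 0.13, limma adjusted p = 0.0022), and the chemokine gene Ccl8 at 0.0449 and 0.311 against 0.947 and 1.98 (-1.51 ± 0.17, limma adjusted p = 0.0027). The fractalkine receptor gene Cx3cr1 differed by -1.14 and the monocyte genes Chil3 and Plac8 by -1.67 and -1.15. The complement genes C1qa and C1qc differed by -0.50 and -0.79 and were not called. With at least 2 UMIs of Ccr7 and of Ccl22 required, C1qc differed by -1.33 and was called (limma adjusted p = 0.0047). Means hid a wide spread between cells. Apoe had a median of 8.99 and 7.68 in these cells, and a single cell reached 400 in the F/F-labelled library and 349 in the other. Egr1 was called lower among 18 immediate-early and heat shock genes (-1.06), of which 7 were lower and none higher at an unadjusted limma p below 0.05. Without the library block the calls of Apoe, Selenop, Ly6c2 and Plac8 were lost (limma adjusted p = 0.057, 0.067, 0.082 and 0.16), which leaves 1 macrophage and 2 monocyte genes.

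**Figure D3:**
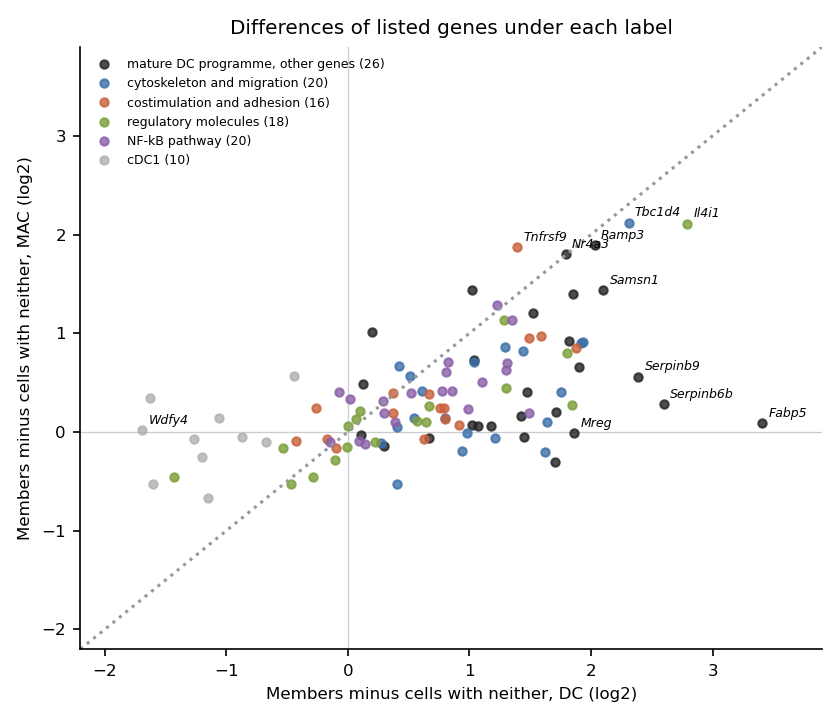
Difference between Ccr7+ Ccl22+ and double-negative cells on the log2(UMIs per 10000 + 0.5) scale, for cells labelled DC (x axis) and MAC (y axis). Points are tested genes of the lists named in the legend, the dotted line marks equal differences, and Fabp5, Serpinb6b and Mreg lie far right at a MAC difference near 0 while Tbc1d4, Ramp3 and Nr4a3 lie near the line.

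Over all 8371 genes tested, 1.65% were called higher in DCs and 0.657% in cells labelled MAC. Genes called higher under both labels numbered 32 of these 8371, which is 23.2% of the DC list and 58.2% of the MAC list. They were Ccl17, Ccl5, Il4i1, Il7r, Tnfrsf9, Pdcd1lg2, Rel, Tnfaip2, Nr4a3, Etv3, Stat4, Samsn1, Syngr2, Ramp3, Tbc1d4, Bcl2a1a, Bcl2a1d, Cblb, Mir155hg, Mmp25, Myo10, Nrp2, Pik3r1, Plcl1, Procr, Ptgs2, Ass1, Hilpda, Ktn1, Tmem131, Tmtc2 and AA467197. The calls of Pdcd1lg2 and Il7r in cells labelled MAC were lost under several alternatives, as given above. Only Ly6c2 was lower under both, and its call in cells labelled MAC was lost against all other such cells (-1.03, limma adjusted p = 0.051). Both comparisons share a fit and the libraries with their free RNA, but no cells. Some of the genes are textbook targets or members of the NF-κB pathway, so promoter windows were read for the κB motif. The windows run from 250 bases before to 50 bases after the start of a gene, from RefSeq on GRCm38.p6, in the direction of the gene. The 10-base κB consensus was searched on both strands. A gene was counted when any of its windows held a match. Of the 32 genes, 31 had a window and 8 of these a match (25.8%). Matches were found for 858 of 6651 tested genes with a window (12.9%) and for 2581 of all 27025 genes with a window (9.55%). The windows of Rel (chr11:23770920-23771219, minus strand), Tnfrsf9 (chr4:150927749-150928048, plus strand) and Pdcd1lg2 (chr19:29410669-29410968, plus strand) are shown, since these genes encode an NF-κB subunit, a costimulatory receptor and a checkpoint ligand. Capitals mark the match, which in Rel and Tnfrsf9 spans a pair of overlapping matches.
Rel: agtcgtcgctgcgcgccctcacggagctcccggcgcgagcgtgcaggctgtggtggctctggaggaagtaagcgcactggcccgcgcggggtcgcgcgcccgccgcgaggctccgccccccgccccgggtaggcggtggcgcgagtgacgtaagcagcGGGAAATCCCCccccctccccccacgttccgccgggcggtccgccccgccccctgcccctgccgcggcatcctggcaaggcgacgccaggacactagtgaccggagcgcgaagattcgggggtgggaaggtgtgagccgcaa
Tnfrsf9: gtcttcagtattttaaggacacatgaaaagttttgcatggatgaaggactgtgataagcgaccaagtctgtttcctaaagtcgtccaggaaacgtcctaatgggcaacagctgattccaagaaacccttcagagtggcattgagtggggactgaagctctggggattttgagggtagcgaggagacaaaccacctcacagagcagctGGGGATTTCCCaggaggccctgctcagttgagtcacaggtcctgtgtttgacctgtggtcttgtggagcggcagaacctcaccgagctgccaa
Pdcd1lg2: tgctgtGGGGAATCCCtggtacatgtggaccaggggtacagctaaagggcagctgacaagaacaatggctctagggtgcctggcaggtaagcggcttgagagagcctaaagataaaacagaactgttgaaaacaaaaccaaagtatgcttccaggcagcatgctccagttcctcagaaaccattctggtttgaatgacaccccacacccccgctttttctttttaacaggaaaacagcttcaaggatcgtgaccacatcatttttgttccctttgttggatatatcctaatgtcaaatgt
A match describes these letters only and shows no binding.

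Ccr7+ Ccl22+ cells labelled MAC were then set against those labelled DC. The labels come from the clustering of the same cells by their mRNAs, so these values are descriptions, and no p-value is given. By the same thresholds 238 genes (2.84%) were higher and 91 (1.09%) lower in the cells labelled MAC. Macrophage mRNAs set the cells labelled MAC apart. C1qa, a complement gene, was at 8.27 and 12.4 UMIs per 10000 in them and at 0.436 and 0.624 in the DCs. Of 20 macrophage genes, 15 were past the thresholds and higher in cells labelled MAC and none lower, among them Apoe (difference 3.42 ± 0.13), C1qb (3.14 ± 0.17) and Csf1r (1.97 ± 0.15). Of 19 genes of endocytosis and pattern recognition, 12 were higher and none lower, with Cd14 at 13.4 and 9.22 against 1.22 and 1.58.

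Chemoattractants for neutrophils and acute cytokines were higher in the cells labelled MAC. Cxcl2 was at 118 and 74.8 UMIs per 10000 against 8.29 and 8.01 in DCs (difference 3.45 ± 0.15), and Cxcl1 at 13.1 and 11.3 against 1.55 and 0.703. Of 21 chemokines and receptors 10 were higher and none lower, and of 22 cytokine genes 5 were higher (Il23a, Il6, Il1a, Il1rn and Tnf) and 1 lower (Il12b, -1.46 ± 0.26). Inhba differed by 3.71 ± 0.26, the matrix gene Fn1 by 3.17 ± 0.21 and Arg1 by 2.53 ± 0.26. In the cells labelled MAC, a single cell held 62.6% and 27.6% of the Arg1 UMIs. Without the highest cell, the Arg1 levels were 2.38 and 1.16 in place of 4.68 and 1.72. Ccl24 differed by 3.08, but a single cell held 93.5% and 64.3% of its UMIs in the cells labelled MAC, and the levels without that cell were 0.308 and 0.799 in place of 7.05 and 2.04. Ccl4 differed by 4.66 within the F/F-labelled library and by 1.19 within the ΔMye-labelled library.

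The DCs were higher in genes of the mature programme. Of 26 genes of the mature programme, 11 were lower and none higher in the cells labelled MAC, with Serpinb6b at 0.152 and 0.148 UMIs per 10000 against 7.15 and 6.54 in DCs. Fscn1 differed by -3.03 ± 0.11, Fabp5 by -2.42 ± 0.18 and Cd200 by -2.10 ± 0.20. Most genes of dendritic cell lineages were not past the thresholds. Of 10 general conventional dendritic cell genes 3 were lower in the cells labelled MAC (Flt3, Zbtb46 and Dpp4) and 1 higher (Itgax), of 10 cDC1 genes Rab7b was higher and none lower, of 13 cDC2 genes Sirpa and Itgam were higher and none lower, and of 8 plasmacytoid genes none was past them. Flt3, the receptor that drives dendritic cell development, was at 0.10 and 0.114 against 1.55 and 1.68, and Zbtb46 at 0.144 and 0.41 against 0.999 and 1.14. Cst3 was at 23.8 and 18.5 against 91.0 and 69.5. Itgax, which encodes CD11c, went the other way, with 2.47 and 2.50 against 0.762 and 1.04. Cd80, Cd274, Rel and Nr4a3 differed less (-0.32, -0.31, -0.30 and -0.42). Levels across all 8371 genes in cells labelled MAC correlated more with double-negative cells labelled MAC (Pearson r across genes of 0.946 and 0.950) than with Ccr7+ Ccl22+ DCs (0.868 and 0.898), where genes are not independent and cells of a library share its free RNA.

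**Figure D4:**
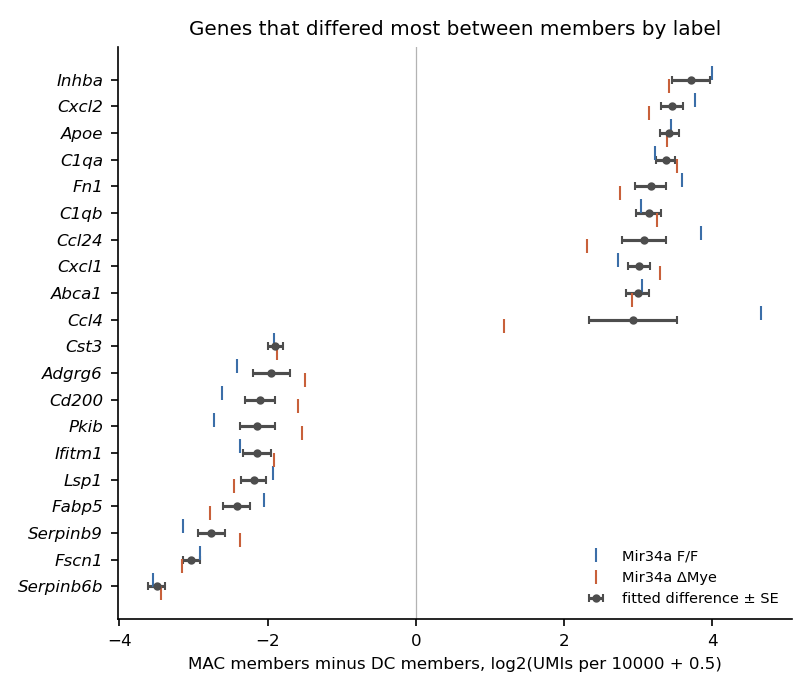
The 10 genes furthest apart in each direction between Ccr7+ Ccl22+ cells labelled MAC and DC, as MAC minus DC on the log2(UMIs per 10000 + 0.5) scale (x axis). Points and bars are the fitted difference ± SE and ticks are the 2 libraries. Inhba lies furthest to the right at 3.71 and Serpinb6b furthest to the left at -3.50, and the ticks of Ccl4 lie furthest apart.

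Marker sums were read in each cell to see whether the labels held cell by cell. The summed level of 8 macrophage markers averaged 27.4 and 39.4 UMIs per 10000 in Ccr7+ Ccl22+ cells labelled MAC, 1.84 and 2.92 in those labelled DC, and 46.6 and 54.2 in double-negative cells labelled MAC. The sum of 5 dendritic cell markers averaged 3.00 and 3.46 in Ccr7+ Ccl22+ cells labelled MAC, 5.49 and 5.80 in those labelled DC, and 1.56 and 1.52 in double-negative cells labelled MAC. The means of cells labelled MAC thus lay between those of double-negative cells and DCs in both sums, but they cover a mixture of cells. Most of the dendritic cell sum in cells labelled MAC came from Itgax, at 2.47 and 2.50, which was lower in the DCs (0.762 and 1.04). Flt3, another of the 5 markers, was found in 2 of 26 and 2 of 53 of the cells labelled MAC. The macrophage sum of single Ccr7+ Ccl22+ cells labelled MAC ran from 0 over a median of 14.8 to 91.6 in the F/F-labelled library and from 0 over 22.3 to 131 in the other. In the 9 and 17 of these cells with Ccl17 its medians were 8.78 and 13.6 (highest 21.5 and 126), and in the 17 and 36 cells without Ccl17 21.6 and 37.8 (highest 91.6 and 131). Cells with Ccl17 thus had lower median macrophage sums in both libraries, with overlap. Markers of both kinds were found in 88.5% and 92.5% of the Ccr7+ Ccl22+ cells labelled MAC and in 64.2% and 81.9% of the DCs, and 30 and 15 of the DCs had no UMI of the macrophage markers. Itgax, found in 80.8% and 79.2% of the cells labelled MAC, counted here as a dendritic cell marker.

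**Figure D5:**
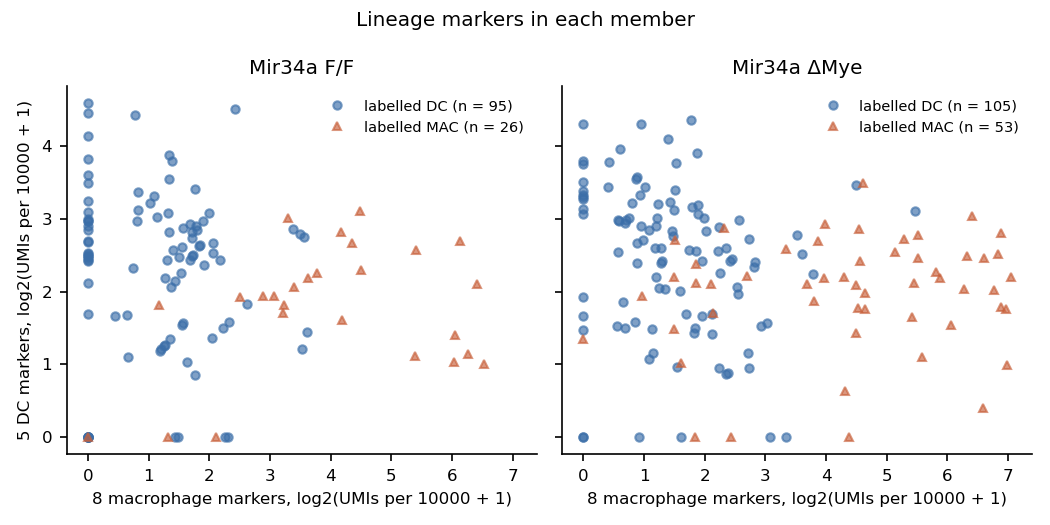
Each point is a Ccr7+ Ccl22+ cell, with the sum of 8 macrophage markers on the x axis and that of 5 dendritic cell markers on the y axis, both as log2(UMIs per 10000 + 1), for each library. Cells labelled MAC (triangles) reach further to the right than cells labelled DC (circles), and the labels overlap at low macrophage sums.

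Markers of other cell types were read because droplets can hold a second cell or free RNA. T cell markers were found in 26.9% and 32.1% of Ccr7+ Ccl22+ cells labelled MAC, against 16.7% and 17.6% of their double-negative cells, and in 15.8% and 14.3% of Ccr7+ Ccl22+ DCs against 18% and 12%. The cells labelled MAC were thus richer in such cells, and also deeper. Their part in the differences above was not tested beyond the fit without cells that held T or B cell UMIs, in which 57 genes were higher in cells labelled MAC, 44 of them among the 55. Epithelial markers had UMIs in all Ccr7+ Ccl22+ cells, at 12.2 and 7.76 UMIs per 10000 in DCs and 11.5 and 6.34 in cells labelled MAC, below the double-negative cells (14.8 and 10.1, and 15.9 and 12.7). Neutrophil markers were uneven, with medians of 3.06 and 1.69 in DCs and 3.76 and 2.28 in cells labelled MAC, but means up to 20.7. No gene was called in the T and NK cell (8 tested), epithelial (11), mast cell (7) or stroma (1) lists in any of the comparisons. At an unadjusted limma p below 0.05, 1 T and NK cell gene was higher and 1 lower in Ccr7+ Ccl22+ DCs, and 5 were higher and 1 lower in those labelled MAC. Of the epithelial genes 3 were lower in DCs and 9 in cells labelled MAC at that p. Of the mast cell genes 2 were lower in DCs, and 1 was higher and 4 lower in cells labelled MAC, and the stroma gene was lower in DCs. Ighm (2 B cell genes tested) was lower in DCs, Sdc1 (9 plasma cell genes) was higher in cells labelled MAC than in DCs, Il1r2 and Clec4e (9 neutrophil genes) were higher in 1 comparison each, and Areg (4 genes of innate lymphoid cells) was higher in cells labelled MAC in both comparisons.

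Lastly, levels were set side by side between the libraries. As each genotype label has 1 library of pooled mice, no test was made, and log2 ratios of the ΔMye-labelled library over the F/F-labelled library are given with 95% intervals for counting error. These intervals come from summed UMIs but lie around the ratio of means over cells. They are therefore not exact and can leave out the ratio of summed UMIs. The median ratio was 0.02 over 3245 genes in the DCs and 0.05 over 3577 genes in the cells labelled MAC. Ccl17 differed in opposite directions, with a ratio of 1.05 (0.89 to 1.22) in Ccr7+ Ccl22+ DCs and -2.11 (-2.39 to -1.83) in those labelled MAC. Summed over cells, the latter ratio was -1.59, outside its interval. Ccr7 had ratios of -0.02 (-0.10 to 0.06) and -0.09 (-0.32 to 0.15).

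Cd80, Cd83, Cd86 and Cd274, which encodes PD-L1, had intervals above 0 under both labels, but these intervals leave out the spread between cells. The share of all genes with intervals above 0 is not given here. With UMIs summed over cells, the ratio of Cd83 in DCs was 0.90, outside its interval given below. Cd80 had ratios of 0.39 (0.22 to 0.57) in DCs and 0.84 (0.47 to 1.23) in cells labelled MAC, Cd83 had ratios of 0.74 (0.61 to 0.88) in DCs and 0.99 (0.68 to 1.32) in cells labelled MAC, Cd86 0.70 (0.55 to 0.85) and 0.99 (0.71 to 1.29), and Cd274 0.59 (0.44 to 0.75) and 1.0 (0.67 to 1.34). In double-negative cells, Cd83 was at 5.07 and 5.65 in DCs and 2.99 and 4.67 in cells labelled MAC, Cd86 at 2.54 and 4.18 and at 3.67 and 5.47, and Cd274 at 1.16 and 1.29 and at 2.23 and 2.34. Each of these mRNAs was thus higher in the ΔMye-labelled library in double-negative cells as well. The direction was not particular to Ccr7+ Ccl22+ cells. Other costimulation genes went otherwise. Cd40 had ratios of 0.04 (-0.27 to 0.35) in DCs and 1.66 (0.93 to 2.47) in cells labelled MAC, and Tnfrsf9 -0.02 (-0.36 to 0.32) and -0.74 (-1.06 to -0.41). Il4i1 had intervals that held 0 in both labels (-0.21 to 0.18, and -0.72 to 0.22), as did Il12b in DCs (-0.02 to 0.36). Il12b in cells labelled MAC rested on 7 and 113 UMIs (2.56, 1.47 to 3.9).

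The largest ratios rested in part on few cells. In DCs they were Timd4 (2.42), Iglc2 (2.23), Ccl4 (2.19), Nrg1 (1.85) and Gm15564 (1.84) upwards, and Il17a (-2.97), Gm41609 (-2.18), Edn1 (-1.92), Gm11290 (-1.73) and Retnlg (-1.66) downwards. Timd4 had UMIs in 5 and 11 DCs, a single cell held 50% and 37.9% of them, and its ratio was 1.62 with UMIs summed over cells and 0.76 in cells with at least 500 detected mRNAs and under 10% mitochondrial content. A single cell held 59 of the 64 UMIs of Il17a in the F/F-labelled library, and 90.9% and 84.7% of those of Retnlg. Nrg1, a growth factor gene, was broader, with UMIs in 26 of 95 and 53 of 105 cells and levels of 1.52 and 5.48. For Ccl4, a single cell held 16.3% and 39.2% of the UMIs. Iglc2 is an immunoglobulin gene, and Gm15564 is among the ribosomal RNA-like genes left out of totals in an alternative. Iglc2 was found in 11.6% and 65.7% of these DCs and Gm15564 in 26.3% and 73.3%. Plasma cell markers were found in 55.1% and 96.9% of double-negative DCs and 53.3% and 94.4% of those labelled MAC. The part of free RNA was not tested. In cells labelled MAC the largest ratios were Cxcl9 (5.55), Eva1b (3.53), Rnf24 (3.22), Galk2 (3.08) and Nlrc5 (3.07) upwards, and Ccl12 (-4.48), Lyz2 (-3.10), Fam20b (-2.90), Mfge8 (-2.85) and Pla2g2d (-2.58) downwards. Cxcl9, a ligand of CXCR3, had 2 UMIs in 1 cell and 290 UMIs in 10 cells. In the F/F-labelled library, a single cell held 87.5% of the Ccl12 UMIs, 78.1% of Fam20b, 71.9% of Mfge8 and 92% of Pla2g2d. Without the highest cell of each, these levels were 0.151, 0.231, 1.69 and 0.0405. Over all cells labelled MAC of the ΔMye-labelled library they were 0.0462, 0.172, 0.533 and 0.17, so Pla2g2d was then not lower there. Lyz2 was at 1.63 and 0.191 in the cells labelled MAC and at 1.46 and 0.381 in their double-negative cells.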

How the data were processed

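CACs were dissociated and profiled by 3′ scRNA-Seq with 1 library per genotype label. The authors aligned reads with Cell Ranger 7.2.0 (also listed in the submitters' processing notes) to an mm10 reference, filtered cells, removed doublets with Scrublet, normalized with LogNormalize of Seurat and assigned cell types to clusters. They deposited values on a natural log scale, ln(1 + x), where x is the UMIs of a gene per 10000 UMIs in its cell. Undoing the log gave whole UMIs (largest deviation 1.49e-10), so depth was known (147109016 and 193133086 UMIs in all), and shallow cells limit rare mRNAs. No further doublet caller was run.

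Labels were used as deposited, and no column of per-sample values was left out. Members and gene lists were chosen with earlier results of these data known. Levels were tested with limma 3.58.1 (R 4.3.3, trended empirical Bayes, 3 residual and 6.01 prior degrees of freedom) for genes with a mean of at least 0.1 over the 8 levels, without Ccr7 and Ccl22. The fit was tested on simulated data. Shares have exact binomial intervals. Ratios between libraries are of means over cells, with counting intervals from summed UMIs that were placed around them and are not exact for them. Cells were thinned with numpy 2.4.6 (seed 1), intervals came from scipy 1.17.1 under Python 3.11.15, and figures from matplotlib 3.10.9.

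Named genes are those of the lists, the 10 called genes with the largest difference in each direction per comparison, and the 5 largest ratios in each direction between libraries among genes with at least 50 UMIs and a mean of at least 0.5. Values of a few listed genes are not reported here. The other genes named as higher under both labels complete that count and were named after their values were seen.

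Alternatives were UMIs summed over cells, pseudocounts of 0.1 and 1, a minimum mean of 0.5 and none, no library block, leaving out each library, cells of at least 3000 UMIs, cells with under 10% mitochondrial content and at least 500 detected mRNAs, at least 2 UMIs of each mRNA, cells without T or B cell UMIs, totals without 415 genes of mitochondria, immunoglobulins and ribosomal RNA-like repeats, and all other cells of a label as comparison. The 415 genes left out of totals also held Camk1d, Lars2 and Cdk8, after which the authors name a macrophage subtype. Leaving out barcodes found in both libraries and double-negative cells with Siglech were added after seeing the data.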

Additional observations from a re-analysis of the deposited data

Results flagged for a closer look

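The difference between Ccr7+ Ccl22+ and double-negative cells was itself compared between the labels (difference in cells labelled MAC minus difference in DCs, log2 scale, limma interaction, adjusted p below 0.05). The labels come from clustering of the same mRNAs, so these values describe the labelled cells and the adjusted p is no independent test of a difference between labels. Over all tested genes, 69 were called larger in cells labelled MAC and 55 larger in DCs. Among the genes named here, the value was negative, which means more of a rise or less of a fall in DCs, for Fabp5 (-3.32), Fscn1 (-2.85), Serpinb6b (-2.32), Adgrg6 (-1.89), Mreg (-1.86), Serpinb9 (-1.84), Marcks (-1.82), Bcl2a1b (-1.57), Cd200 (-1.56), Cd63 (-1.54), Cacnb3 (-1.51), Cxcl16 (-1.07), Basp1 (-1.02), Ly75 (-1.02) and Tmem123 (-1.01).

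The same sign was found for Chil3 (-1.71), Ccl8 (-1.37) and Ms4a7 (-1.26), which were lower in Ccr7+ Ccl22+ cells labelled MAC and near 0 in DCs of both states. The value was positive for Dcstamp (2.03), Il23a (1.52) and Itgax (1.18). It was also positive for genes that were lower in Ccr7+ Ccl22+ DCs and not called between the states of cells labelled MAC, namely Siglech (3.00), Ccr9 (2.44), Mctp2 (2.08), Cox6a2 (1.91), Grm8 (1.81), Ly6d (1.77), Wdfy4 (1.71), Cd7 (1.58), Mef2c (1.57), Bst2 (1.33) and Clec9a (1.19). Cox6a2 had no UMI in Ccr7+ Ccl22+ cells of either label, so its fitted value depends on the added 0.5. Without double-negative cells with Siglech, Mctp2, Grm8 and Bst2 differed by -0.33, -0.49 and -0.48 in DCs and were not called.

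Cells of other labels also held both mRNAs, 33 in the F/F-labelled library and 46 in the ΔMye-labelled library, above the 3 that a count of 0 allows, a limit that does not speak to cells holding both mRNAs by chance. By label these were 19 and 15 epithelial cells, 8 and 21 T cells, 6 and 7 B cells, and in the latter library 2 mast cells and 1 neutrophil. The product of the shares with each mRNA gives 9.35 and 11.4 epithelial cells, 8.55 and 14.7 T cells and 6.59 and 13.6 B cells. Of them, 10 and 5 held Fscn1 or Ccl17.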

How the results depend on the processing

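No called value of a named gene changed direction under any alternative run, and of 2193 values of named genes under the alternatives, 2039 kept their call or stayed within the spread. The cause of the changes below was not tested. Counts are given as genes higher and lower in Ccr7+ Ccl22+ DCs, higher and lower in those labelled MAC, and higher and lower in cells labelled MAC than in DCs, with 138, 92, 55, 12, 238 and 91 as reported. A pseudocount of 0.1 gave 306, 343, 125, 88, 638 and 291, a pseudocount of 1 gave 85, 46, 31, 6, 128 and 47, and no filter on low levels (24712 genes) gave 51, 38, 0, 0, 143 and 55. With no filter, 62 of 131 values of named genes lost their call, among them Ccl5, Cd40, Cd80, Cd274, Relb and Il12b in DCs (limma adjusted p of 0.071 to 0.16). For the counts of 0 in that limma fit, 682 genes were higher and 3374 lower at an unadjusted p below 0.05, and 55 and 12 genes were called with the filter. At least 2 UMIs of each mRNA gave 84 and 78 genes in cells labelled MAC, and shares of 19.6% and 17.9% of DCs and 0.679% and 0.884% of cells labelled MAC. Thinned shares were 18.5%, 13.5%, 0.252% and 0.553%. Without double-negative cells with Siglech, 42 genes were lower in DCs. Genes lower in cells labelled MAC numbered 21 in cells of at least 3000 UMIs, 19 without T or B cell UMIs, and 23 with totals without genes of mitochondria, immunoglobulins and ribosomal RNA-like repeats. With 1 library left out there is no test, and genes past the difference of 1 numbered 144 to 162, 85 to 127, 58 to 99, 26 to 35, 254 to 296 and 87 to 137. The library was the block that paired the states. Without this replicate block the counts were 134, 91, 37, 6, 232 and 87, and 9 named genes lost their call. Levels of mRNAs with few UMIs, such as Il12b in cells labelled MAC, rest on few cells.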
